A study of Mus musculus with 8 samples.

Results

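The genes described here are 7 Fc receptor and Fc-receptor-like genes, chosen by name from 56748 genes in a table of RNA-seq read counts: Fcgr1, Fcgr2b, Fcgr3, Fcgr4, Fcer1g, Fcgrt and Fcrls. They were measured in 4 libraries of TgCRND8 transgenic mice (Tg) and 4 libraries of non-transgenic littermates (NTg), all aged 18 months. TgCRND8 mice overexpress the amyloid precursor protein, and as background the line carries a human APP transgene with familial Alzheimer mutations under a hamster prion protein promoter, so that amyloid plaques form in the brain. The forebrain came from one snap-frozen hemisphere, and no treatment other than ageing is named for either genotype. Whether every library comes from its own animal is not stated in so many words, so p-values cover the spread between these libraries and no more. All libraries carry the same batch value.

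Fc receptors bind the constant stem of antibodies. In mice the activating receptors for immunoglobulin G, encoded by Fcgr1, Fcgr3 and Fcgr4, signal through the shared gamma chain encoded by Fcer1g, whose immunoreceptor tyrosine-based activation motif (ITAM) is phosphorylated by Src-family kinases and recruits Syk. Fcgr2b encodes the inhibitory receptor, which carries its own inhibitory motif and recruits phosphatases. Fcgrt encodes the heavy chain of the neonatal Fc receptor, which pairs with beta-2 microglobulin and returns antibody from endosomes to the cell surface. Fcrls is an Fc-receptor-like gene known from mouse microglia. In the brain the activating and inhibitory receptors are known mainly from microglia and other macrophages, while Fcgrt is also known from endothelium and choroid plexus.

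Each library held 57129090 to 65242741 counts, and a filter on low counts left 21588 genes to test, among them all 7 receptor genes. App, the mouse gene on which reads of the transgene can partly fall, was at 2851 ± 213 CPM in Tg and 1488 ± 98.4 CPM in NTg (read counts divided by the scaled library size, mean ± SD, n = 4 each), with no overlap between the genotypes. Neuron markers were present in every library and summed to 4924 to 5640 CPM in Tg and 5445 to 5803 CPM in NTg. One Tg library, replicate 1, stood apart from the other 3: its summed microglia markers were 678 CPM where Tg replicates 2 to 4 had 1046 to 1105 CPM and NTg libraries 504.5 to 671.9 CPM. Its red blood cell markers summed to 3004 CPM, where Tg replicates 2 to 4 had 448.3 to 732.4 CPM and NTg libraries 1283 to 3274 CPM. The receptor genes, and the genes given with an edgeR p that changes side without this library, are reported with and without it. It was singled out after these same data had been seen, so values without it are no separate support.

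The promoters show which of the genes carry short sequences that myeloid and interferon-driven factors are known to bind, and they are printed for the 4 genes that held a match. The windows are the 250 bases before each gene's start in RefSeq on build GRCm38.p6, an older build than the GRCm39 of the counts, and RefSeq had an entry for all 7 genes. Each motif was searched on both strands. They were GAGGAA, the box bound by the myeloid factor PU.1, TTCNNNGAA, the gamma-activated site bound by STAT factors, and the interferon-stimulated response element, searched as GAAA, any 2 bases and GAAA again. Capitals mark the matches, none of which overlap, and each sequence runs 5′ to 3′ on the gene's own strand. Fcgr1 lies at chr3:96293970-96294219 on the minus strand, Fcgr3 at chr1:171059404-171059653 on the minus strand, Fcgr4 at chr1:171018676-171018925 on the plus strand and Fcrls at chr3:87263525-87263774 on the minus strand.
Fcgr1: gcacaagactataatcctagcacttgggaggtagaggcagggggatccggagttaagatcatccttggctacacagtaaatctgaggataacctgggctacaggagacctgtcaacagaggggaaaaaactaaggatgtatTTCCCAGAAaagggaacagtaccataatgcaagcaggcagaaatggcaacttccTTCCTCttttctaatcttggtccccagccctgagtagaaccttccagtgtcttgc
Fcgr3: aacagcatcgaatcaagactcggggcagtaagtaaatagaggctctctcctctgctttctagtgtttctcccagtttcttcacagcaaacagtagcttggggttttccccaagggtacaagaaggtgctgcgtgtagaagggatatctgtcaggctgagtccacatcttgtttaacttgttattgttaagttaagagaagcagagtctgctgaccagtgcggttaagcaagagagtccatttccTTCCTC
Fcgr4: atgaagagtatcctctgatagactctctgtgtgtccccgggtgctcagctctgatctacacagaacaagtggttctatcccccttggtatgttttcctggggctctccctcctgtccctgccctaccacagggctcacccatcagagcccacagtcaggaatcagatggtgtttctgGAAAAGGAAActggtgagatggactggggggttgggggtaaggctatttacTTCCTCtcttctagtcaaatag
Fcrls: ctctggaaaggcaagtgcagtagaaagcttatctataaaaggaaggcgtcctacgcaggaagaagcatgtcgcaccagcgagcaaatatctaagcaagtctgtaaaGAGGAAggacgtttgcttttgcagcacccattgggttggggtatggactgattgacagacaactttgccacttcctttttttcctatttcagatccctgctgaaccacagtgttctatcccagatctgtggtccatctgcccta
The PU.1 box stood in 4 of the 7 windows, beginning 55 bases before the start in Fcgr1, 6 in Fcgr3, 22 in Fcgr4 and 144 in Fcrls. In the second start that RefSeq lists for Fcgr3 the box began 15 bases before it. The box was present in 22.8% of the 17248 promoter windows of genes tested here. The gamma-activated site stood once, 109 bases before the start of Fcgr1, and was present in 5.98% of those windows. Fcgr4 alone among the 7 held the interferon-stimulated element, 73 bases before its start, against 2.70% of windows. The windows of Fcgr2b, Fcer1g and Fcgrt held none of these letters. The motifs were chosen after the promoter sequences had been seen, and a match describes the letters only.

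Transcripts of the activating receptors stood higher in Tg than in NTg forebrain, 1.57-fold for Fcgr1, 1.85-fold for Fcgr3 and 1.86-fold for Fcgr4 in mean CPM, and so did those of the gamma chain Fcer1g, 1.89-fold. The quasi-likelihood test of edgeR, adjusted over all genes tested, called 0 of the 7 receptor genes, as it called 0.0139% of all genes. DESeq2 on the same counts called Fcgr1, Fcgr3, Fcer1g and Fcgr2b higher, where it called 1.37% of all genes higher, and limma-voom called 0. At an unadjusted edgeR p under 0.05, 6 of the 7 were higher in Tg, against 4.68% of all genes. In whole tissue, a difference in the number of cells of a type and one in the RNA per cell cannot be told apart.

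Fcgr1, the high-affinity receptor that can bind a single antibody, was at 4.68, 7.19, 6.88 and 6.89 CPM in Tg replicates 1 to 4 and at 4.61, 3.69, 4.21 and 3.85 CPM in NTg replicates 1 to 4. Replicate 1 was the lowest Tg library and also the highest NTg library, and the genotypes did not overlap, by a margin of under 0.1 CPM. The log2 fold change was 0.65 (SE 0.15, edgeR adjusted p = 0.169; DESeq2 adjusted p = 0.00434). Without Tg replicate 1 it was 0.77 (SE 0.11, edgeR adjusted p = 0.00889).

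Fcgr3, the low-affinity activating receptor, had 15.1, 27.5, 31.0 and 27.6 CPM in Tg and 14.4, 14.7, 13.9 and 11.8 CPM in NTg, in the order of the replicates. Tg replicates 2 to 4 were near one another and well above every NTg library, while Tg replicate 1 exceeded the highest NTg library by less than the NTg spread. The difference was 0.88 on the log2 scale (SE 0.19, edgeR adjusted p = 0.151; DESeq2 adjusted p = 0.000451), and 1.06 without Tg replicate 1 (SE 0.09, edgeR adjusted p = 0.000799). Fcgr3 and Fcgr2b share part of their sequence: 94 of the 1733 distinct stretches of 75 bases in annotated Fcgr3 transcripts, 5.42%, also occur in Fcgr2b, so some of their reads could have been assigned to either gene or dropped.

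Fcgr4, a receptor for some antibody subclasses, was the scarcest of the 7, with 88, 71, 103 and 59 counts in Tg and 42, 35, 30 and 60 counts in NTg, in replicate order. That is 1.33, 1.17, 1.77 and 1.01 CPM in Tg and 0.694, 0.556, 0.533 and 1.06 CPM in NTg. Unlike its relatives it was not low in Tg replicate 1, and NTg replicate 4 lay above Tg replicate 4, so that the genotypes overlapped. The log2 fold change of 0.89 (SE 0.26) did not pass edgeR (adjusted p = 0.315) or DESeq2 (adjusted p = 0.0971), and leaving out Tg replicate 1 gave 0.89 (edgeR adjusted p = 0.279).

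Fcer1g, the gamma chain that the activating receptors need for assembly and signalling, was at 11.03, 19.5, 20.7 and 18.9 CPM in Tg and at 10.4, 9.17, 9.42 and 8.08 CPM in NTg. Its order across the libraries was close to that of Fcgr3, with Tg replicate 1 just above NTg replicate 1 and no overlap. It had the smallest p of the 7 genes, with a log2 fold change of 0.92 (SE 0.18, edgeR adjusted p = 0.121; DESeq2 adjusted p = 8.68e-05). Without Tg replicate 1 the value was 1.09 (SE 0.09, edgeR adjusted p = 0.000808).

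**Figure D1:**
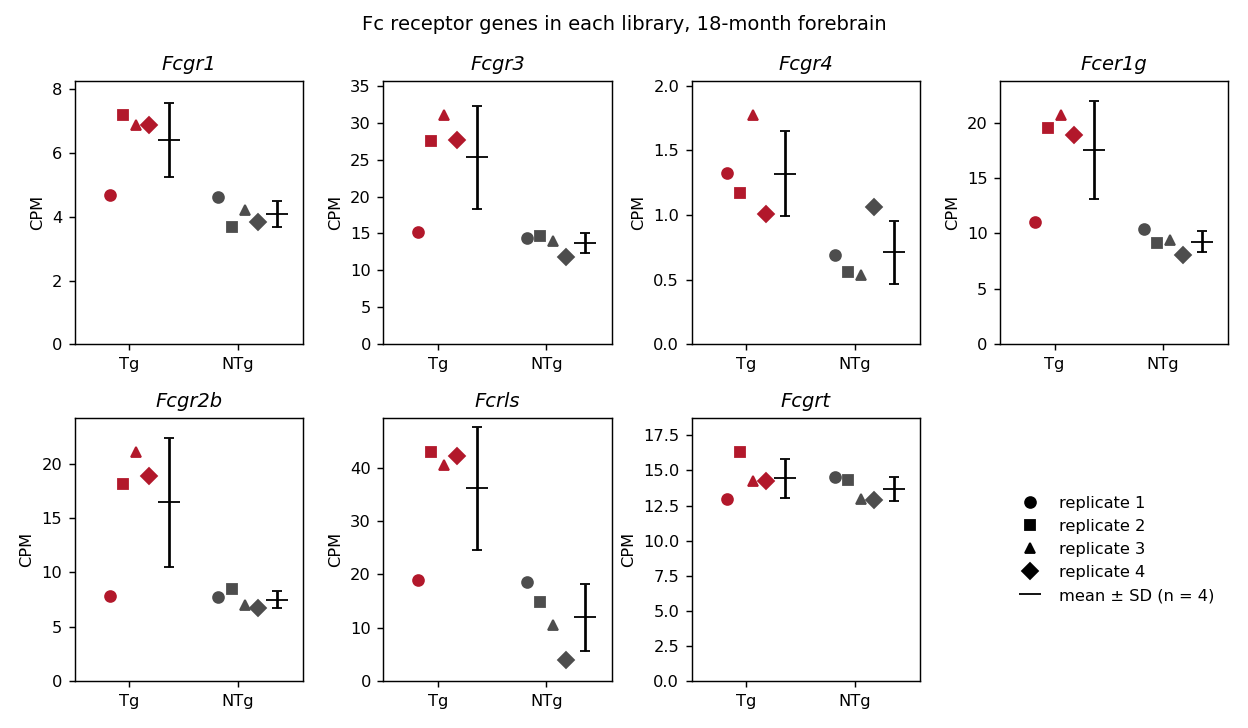
CPM (read counts divided by the scaled library size) of each of the 7 genes by library, Tg left of NTg, with the mean and SD of 4 libraries beside the points and a symbol for each replicate number. Tg replicate 1 lies near the NTg libraries in Fcgr1, Fcgr3, Fcer1g and Fcgr2b but not in Fcgr4, and Fcrls of NTg replicate 4, at 3.90 CPM, is the lowest value of that gene.

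Fcgr2b, the inhibitory receptor, stood 2.2-fold higher in Tg in mean CPM. Its values were 7.79, 18.1, 21.1 and 18.9 CPM in Tg and 7.73, 8.48, 6.96 and 6.72 CPM in NTg. Tg replicates 2 to 4 were each more than 2-fold above the highest NTg library, whereas Tg replicate 1 lay inside the NTg range, below NTg replicate 2. With it the log2 fold change was 1.14 (SE 0.26, edgeR adjusted p = 0.169; DESeq2 adjusted p = 0.0237), and without it 1.37 (SE 0.10, edgeR adjusted p = 0.000496). An antisense transcript, Gm38204, overlaps 2.68% of the annotated Fcgr2b exon bases, and the kit does not mark strand. Fcgr2b transcripts hold 5768 distinct stretches of 75 bases. On either strand, 123 of these (2.13%) also occur in Cplx2, 116 (2.01%) in Gm47409 and 94 (1.63%) in Fcgr3. Many other genes share fewer, so reads from these stretches could have been assigned to another gene or dropped.

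Fcrls had the largest difference of the 7, 3.03-fold in mean CPM, and the widest spread within a genotype. It was at 18.95, 42.9, 40.6 and 42.2 CPM in Tg and at 18.6, 14.8, 10.5 and 3.90 CPM in NTg. The genotypes did not overlap, but Tg replicate 1 and NTg replicate 1 differed by less than 1 CPM, and the NTg libraries alone spanned more than 4-fold. The log2 fold change of 1.59 (SE 0.41) did not pass edgeR (adjusted p = 0.230) or DESeq2 (adjusted p = 0.0920). It was 1.81 without Tg replicate 1 (SE 0.38, edgeR adjusted p = 0.0639) and 2.10 without replicate 1 of both genotypes, a setting chosen after seeing the data, where it passed (edgeR adjusted p = 0.0360). In that setting edgeR called 5 of the 7 genes, all higher, where it called 1.36% of all genes higher.

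Fcgrt, the neonatal Fc receptor, was the member with the smallest difference. Its values were 12.99, 16.3, 14.2 and 14.3 CPM in Tg and 14.5, 14.3, 12.9 and 12.9 CPM in NTg, with the genotypes interleaved. The log2 fold change was 0.08 (SE 0.08, edgeR adjusted p = 0.924; DESeq2 adjusted p = 1), and between 0.01 and 0.13 when each library was left out in turn. Markers of 2 cell types in which the receptor is known had negative fold changes. Endothelial markers summed to 187 to 257 CPM in Tg and 244 to 302 CPM in NTg, which overlap, and 10 of 10 had a lower mean in Tg. The edgeR test called 0 of them, or 1 without Tg replicate 1, and DESeq2 called 1, where DESeq2 called 0.25% of all genes lower and edgeR without that library 0.174%. Choroid plexus markers summed to 737 to 1132 CPM in Tg and 1203 to 1620 CPM in NTg, and 11 of 11 had a lower mean in Tg. Of these edgeR called 0, or 2 without Tg replicate 1, and DESeq2 called 6 lower. The part of these in the Fcgrt value was not tested.

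Across the set, 4 of the 7 genes (Fcgr1, Fcgr3, Fcer1g and Fcrls) had every Tg library above every NTg library, against 2.62% of all genes tested. The median log2 fold change of all 7 was 0.89, against -0.0024 for all 21588 genes. Without Tg replicate 1, edgeR called Fcgr1, Fcgr2b, Fcgr3 and Fcer1g higher, where it called 1.26% of all genes higher. Fcgr4, Fcgrt and Fcrls were not called in that setting. With any other single library left out, edgeR called 0 of the 7. Tg replicate 1 was singled out for low microglia markers in these same data, so the calls without it are no separate support.

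**Figure D2:**
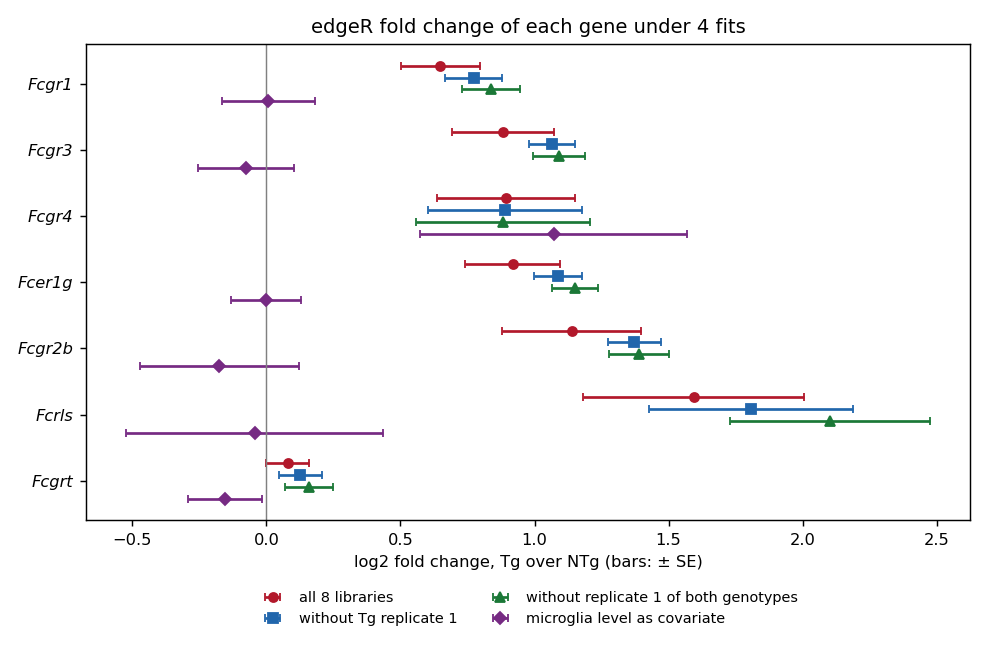
Log2 fold change, Tg over NTg, with its SE from edgeR for each gene under 4 fits: all 8 libraries, without Tg replicate 1, without replicate 1 of both genotypes, and with the mean level of 18 microglia markers as a covariate. The covariate brings Fcgr1, Fcgr3, Fcer1g, Fcgr2b and Fcrls to within 1 SE of 0, while Fcgr4 stays at 1.07 with an SE of 0.50.

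Microglia markers moved with these genes. Of 18 markers, 18 were higher in Tg, against 10615 of all 21588 genes, with a median log2 fold change of 0.64, and none was at 0 in every library. The edgeR test called 0 of them, or 13 without Tg replicate 1, and DESeq2 called 10 higher, beside the 1.26% and 1.37% of all genes that these called higher. Relative to the NTg mean, their mean log2 level was 0.24, 0.79, 0.83 and 0.78 in Tg replicates 1 to 4 and 0.22, -0.05, 0.01 and -0.17 in NTg replicates 1 to 4. With this level as a covariate the log2 fold change was 0.01 for Fcgr1 (SE 0.17), -0.08 for Fcgr3 (SE 0.18), -0.0015 for Fcer1g (SE 0.13), -0.18 for Fcgr2b (SE 0.30) and -0.04 for Fcrls (SE 0.48). Fcgr4 was at 1.07 (SE 0.50, edgeR adjusted p = 0.778) and Fcgrt at -0.15 (SE 0.14) in the same fit, in which edgeR called 0 genes in all. The covariate itself differs between the genotypes, so the effects of the 2 cannot be fully told apart in this fit. With the red blood cell level as the covariate instead, the log2 fold change was 0.42 for Fcgr1 (SE 0.145), 0.48 for Fcgr3 (SE 0.125), 0.56 for Fcer1g (SE 0.131), 0.56 for Fcgr2b (SE 0.18) and 0.92 for Fcrls (SE 0.308), each less than without it. Fcgr4 was at 1.149 (SE 0.299) and Fcgrt at -0.028 (SE 0.0829) in that fit, and edgeR called 0 of the 7 (adjusted p = 0.529 or more). Of the red blood cell markers, 6 of 6 had negative log2 fold changes, with a median of -0.83. The edgeR test called 0 of them, or 4 lower without Tg replicate 1, against 0.174% of all genes, and DESeq2 called 0. This level and the genotype cannot be fully told apart either.

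Member by member, the distance from the microglia level differed. Fcgr1 tracked it closely, lying within 0.10 of it on the log2 scale in every library, with a mean of -0.03 ± 0.04 in Tg and 0 ± 0.08 in NTg (SD, n = 4). Fcgr2b exceeded it by 0.50, 0.67 and 0.56 in Tg replicates 2 to 4 and lay 0.17 below it in Tg replicate 1. The excess of Fcer1g was 0.22 ± 0.14 in Tg and 0 ± 0.04 in NTg, and that of Fcgr3 0.18 ± 0.19 in Tg and 0 ± 0.13 in NTg. Fcrls exceeded it by 0.64 to 1.27 in Tg, while its NTg libraries ran between -1.22 and 0.63. The NTg mean that sets the zero was lowered by NTg replicate 4, at -1.22. Tg replicate 1, at 0.64, was level with NTg replicate 1, at 0.63. Fcgr4 did not follow the microglia level, with excesses of 0.69 in Tg replicate 1 and 0.78 in NTg replicate 4 that were the highest of either genotype. These distances subtract the microglia level as it is, while the covariate fit estimates a slope for each gene. The distances can therefore differ from the covariate values, as they do for Fcgr2b and Fcrls. They describe the libraries and were not tested.

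**Figure D3:**
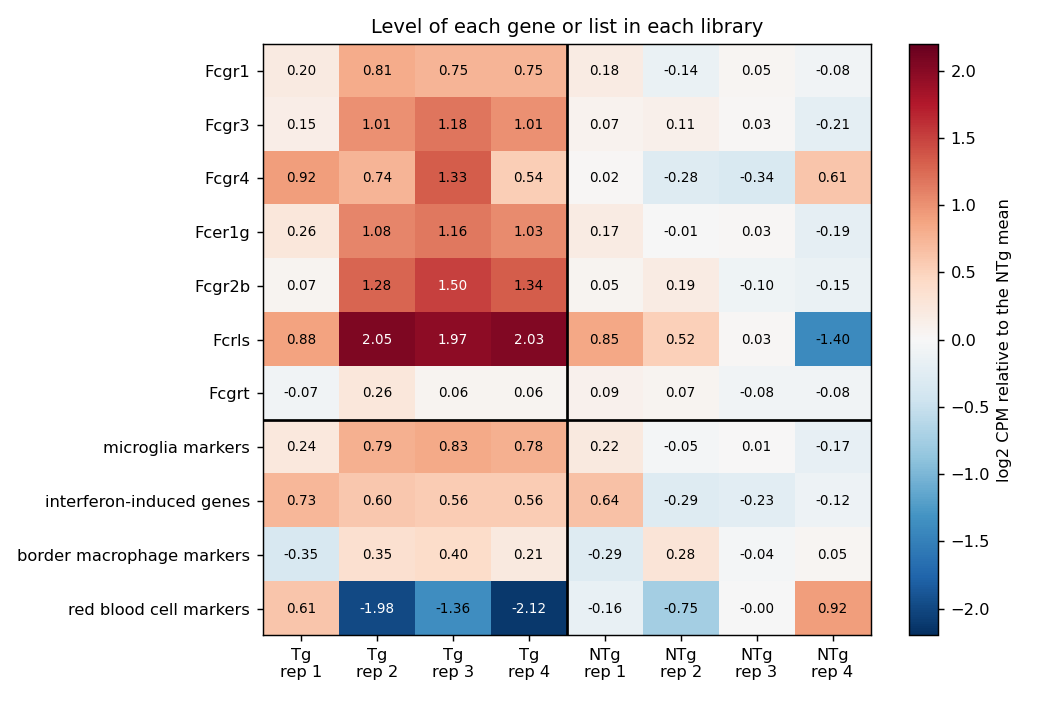
Log2 CPM relative to the NTg mean for each of the 7 genes and for the mean of 4 marker lists, in each of the 8 libraries, Tg at the left. Tg replicate 1 has 0.24 in the microglia list where the other Tg libraries have 0.78 to 0.83, and NTg replicate 1 has 0.64 in the interferon list where the other NTg libraries are below 0.

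Markers of other cells that carry Fc receptors were also summed by library. Border macrophage markers summed to 18.0 to 31.5 CPM in Tg and 20.4 to 26.4 CPM in NTg, with 7 of 9 higher. Neutrophil markers summed to 2.81 to 11.1 CPM in Tg and 2.88 to 10.6 CPM in NTg, and 7 of the 7 tested were lower. Natural killer cell markers reached at most 0.998 CPM in Tg and 1.42 CPM in NTg, with 0 of 7 abundant enough to test. Mast cell markers summed to 2.88 to 5.04 CPM in Tg and 2.39 to 3.93 CPM in NTg. Monocyte markers summed to 34.3 to 35.9 CPM in Tg and 33.0 to 39.4 CPM in NTg, with 2 of 6 higher. Their mean log2 level relative to NTg spread more widely, from -0.92 to 0.12 in Tg and -0.32 to 0.35 in NTg. The sum therefore does not describe the single markers. Dendritic cell markers were at 46.0 to 65.5 CPM in Tg and 37.0 to 49.3 CPM in NTg, with 3 of 5 tested higher. DESeq2 called 1 of them higher, Itgax, against 1.37% of all genes. No other marker of that list was called, so this is a result for 1 gene and not for the cell type. In these lists no marker was at 0 in every library. The edgeR test called 0 of them, or 1 dendritic cell marker without Tg replicate 1, against 1.26% of all genes called higher. Their part in the receptor values was not tested.

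Levels of different genes were compared per kilobase of the union of annotated exons in GENCODE M21. In Tg the order was Fcer1g (20.1 ± 5.03 CPM per kb), Fcrls (15.5 ± 4.93), Fcgr3 (14.6 ± 4.01), Fcgrt (6.87 ± 0.65), Fcgr2b (2.85 ± 1.02), Fcgr1 (2.48 ± 0.45) and Fcgr4 (1.05 ± 0.26). In NTg the order was Fcer1g (10.6 ± 1.11 CPM per kb), Fcgr3 (7.89 ± 0.75), Fcgrt (6.51 ± 0.42), Fcrls (5.12 ± 2.70), Fcgr1 (1.58 ± 0.16), Fcgr2b (1.29 ± 0.14) and Fcgr4 (0.566 ± 0.19). In Tg, neighbours in this order that differed by less than the larger of their SDs were Fcer1g and Fcrls, Fcrls and Fcgr3, and Fcgr2b and Fcgr1. In NTg the only such pair was Fcgrt and Fcrls. The order depends in part on the length taken. Per kilobase of the longest principal transcript Fcgr3, at 18.8 ± 5.17 in Tg, stood above Fcrls, at 15.9 ± 5.06. For Fcgr2b the exon union of 5.79 kb includes a long transcript, and per kilobase of the principal transcript, 3.54 kb, it was at 4.65 ± 1.67 in Tg and 2.11 ± 0.23 in NTg, above Fcgr1 in both genotypes.

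The balance of inhibitory and activating receptors was then compared within libraries. The log2 ratio of Fcgr2b to Fcgr3 was -0.96, -0.60, -0.55 and -0.55 in Tg and -0.89, -0.79, -0.997 and -0.81 in NTg. Tg replicates 2 to 4 lay above every NTg library and Tg replicate 1 among them. The difference of 0.21 did not pass an exact two-sided permutation test (p = 0.114, and 0.152 adjusted over 4 ratios, n = 4 each), and it was 0.31 without Tg replicate 1. The ratio of Fcgr2b to Fcgr4 was 3.54 ± 0.73 in Tg and 3.38 ± 0.53 in NTg (exact permutation p = 0.686, adjusted 0.686, n = 4 each), and its sign turned without Tg replicate 4 or NTg replicate 4. Of the per-kilobase sum of the 4 receptors for immunoglobulin G, Fcgr2b made up 10.4, 13.8, 14.3 and 14.4% in Tg and 11.2, 12.4, 10.7 and 11.3% in NTg. Fcgr3 held the largest share, 69.3 ± 1.27% in Tg and 69.6 ± 2.55% in NTg. These shares use the exon union, which for Fcgr2b includes a long transcript, so its share depends on the length taken. Of the read counts of the 4 receptors, without regard to length, Fcgr2b made up 32.5 ± 3.76% in Tg and 28.8 ± 1.59% in NTg. Fcgr3 made up 51.3 ± 0.738% in Tg and 52.7 ± 1.72% in NTg.

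Each chain was also set beside its partner. Beta-2 microglobulin, the light chain of the neonatal Fc receptor and of class I molecules, was at 164, 193, 202 and 169 CPM in Tg and at 180, 91.6, 94.7 and 107 CPM in NTg, where replicate 1 alone was in the Tg range. The log2 ratio of Fcgrt to B2m was -3.65 ± 0.12 in Tg and -3.05 ± 0.41 in NTg (difference -0.60, exact two-sided permutation p = 0.0857, 0.152 adjusted over 4 ratios, n = 4 each), and -0.79 without NTg replicate 1. Tyrobp, the other ITAM adaptor of myeloid cells, was at 30.0, 59.3, 54.3 and 67.5 CPM in Tg and 23.9, 21.3, 18.4 and 19.5 CPM in NTg. Relative to it Fcer1g was lower in Tg, with log2 ratios of -1.44, -1.60, -1.39 and -1.83 in Tg and -1.195, -1.22, -0.97 and -1.27 in NTg, and no overlap. The difference of -0.41 had the smallest p that 4 against 4 libraries can give, 0.0286 in an exact two-sided permutation test, and an adjusted p of 0.114 over the 4 ratios, which does not pass.

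The genes that act directly after receptor engagement were higher in part. Of 31 genes of proximal ITAM signalling, all tested, 22 were higher and 9 lower in Tg, with a median log2 fold change of 0.31, against 10615 higher and 10973 lower over all genes. The edgeR test called 0 of them, or 7 without Tg replicate 1, and DESeq2 called 7 higher and 0 lower. Over all genes these called 1.26% and 1.37% higher. The 7 of DESeq2 were Lyn, Tyrobp, Lcp2, Vav1, Btk, Pik3cg and Nckap1l. Lyn, a Src-family kinase that can act on both activating and inhibitory receptors, was at 16.4 to 20.2 CPM in Tg and 12.1 to 13.5 CPM in NTg (log2 fold change 0.57, SE 0.08, edgeR adjusted p = 0.0723; DESeq2 adjusted p = 1.75e-07), with no overlap, and passed without Tg replicate 1 (edgeR adjusted p = 0.00169). Tyrobp had a log2 fold change of 1.34 (SE 0.21, edgeR adjusted p = 0.107), or 1.54 without Tg replicate 1 (edgeR adjusted p = 0.000356). Syk, the kinase that binds the phosphorylated ITAM, was at 5.28 ± 1.1 CPM in Tg and 4.27 ± 1.2 CPM in NTg (edgeR adjusted p = 0.858). The abundant members Grb2 and Pik3r1, expressed in many cell types, stood at 137 and 131.5 CPM in Tg and 145 and 143 CPM in NTg.

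The inhibitory arm had 10 of 12 genes higher and a median log2 fold change of 0.09. The edgeR test called 0, or 2 without Tg replicate 1, and DESeq2 called 3 higher, Inpp5d, Ptpn6 and Cd300lf, against the same 1.26% and 1.37% of all genes. Inpp5d encodes SHIP1, the lipid phosphatase recruited by the inhibitory receptor, and was at 13.9, 19.1, 18.5 and 19.9 CPM in Tg and 14.6, 10.2, 11.5 and 10.2 CPM in NTg. Tg replicate 1 lay below NTg replicate 1, so the genotypes overlapped (log2 fold change 0.62, SE 0.14, edgeR adjusted p = 0.173, and 0.0260 without Tg replicate 1). Ptpn6, which encodes the tyrosine phosphatase SHP-1, was at 8.49 ± 1.31 CPM in Tg and 5.20 ± 1.22 CPM in NTg (log2 fold change 0.71, SE 0.17, edgeR adjusted p = 0.196, and 0.0471 without Tg replicate 1). The abundant Sirpa and Ptpn11 were at 347 and 214 CPM in Tg and 322 and 224 CPM in NTg.

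Of 27 phagocytic effectors, which rebuild actin and make superoxide after receptor engagement, 21 were higher and 6 lower, with a median log2 fold change of 0.08. The edgeR test called 0, or 6 without Tg replicate 1, and DESeq2 called 6 higher, among them Was, Arpc1b, Myo1f, Ncf1 and Cyba, against 1.26% and 1.37% of all genes. Was, the actin regulator mutated in Wiskott-Aldrich syndrome in humans, was at 1.65, 2.35, 2.38 and 2.54 CPM in Tg and 1.37, 1.24, 1.23 and 1.13 CPM in NTg (log2 fold change 0.84, SE 0.16, edgeR adjusted p = 0.121, and 0.00668 without Tg replicate 1). Cyba, a membrane subunit of the phagocyte oxidase, was at 7.21 to 12.9 CPM in Tg and 4.78 to 6.04 CPM in NTg (log2 fold change 0.92, SE 0.17, edgeR adjusted p = 0.121, and 0.0048 without Tg replicate 1). Both were among the 4 of 27 genes with every Tg library above every NTg library, against 2.62% of all genes. The widely expressed Myo5a and Cfl1 were at 506 and 503 CPM in Tg and 532 and 497 CPM in NTg.

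Genes of neonatal Fc receptor trafficking differed little: 4 of 9 tested were higher, the median log2 fold change was -0.05, and edgeR and DESeq2 each called 0. B2m was the only one of them at an unadjusted p under 0.05 (log2 fold change 0.62, SE 0.20, edgeR adjusted p = 0.386), and it passed without NTg replicate 1 or without replicate 1 of both genotypes. NTg replicate 1 was the highest NTg library in B2m, so these settings follow from the values tested. Myo5b, a motor of recycling endosomes, was at 35.3 CPM in Tg and 42.5 CPM in NTg, and Vps35, a part of the retromer, at 214 CPM in Tg and 212 CPM in NTg.

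Other Fc receptors, Fc-binding proteins and some immunoglobulin-like receptors were scarce. Of 17 genes, 9 were abundant enough to test, 5 of them higher and 4 lower. DESeq2 called 1 of these, against 1.37% of all genes called higher. This was Lilrb4a, an inhibitory receptor of the leukocyte immunoglobulin-like family rather than an Fc receptor. Only without Tg replicate 1 or replicate 1 of both genotypes, or with no filter on low counts, did edgeR call it. In the first 2 of these settings edgeR called 1.26% and 1.36% of all genes higher. Lilrb4a was at 2.43, 7.24, 6.23 and 3.67 CPM in Tg and 1.77, 1.398, 1.12 and 1.66 CPM in NTg (log2 fold change 1.72, SE 0.32, edgeR adjusted p = 0.121, and 0.00518 without Tg replicate 1). Trim21, a cytosolic antibody receptor, was at 4.18 to 5.13 CPM in Tg and 3.23 to 4.76 CPM in NTg. Fcgbp, an Fc-binding mucus protein, was at 0.264 ± 0.07 CPM in Tg and 0.493 ± 0.22 CPM in NTg (edgeR adjusted p = 0.553). Fcer1a, the binding chain of the receptor for immunoglobulin E with which the gamma chain also pairs, had 1 count in 8 libraries.

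**Figure D4:**
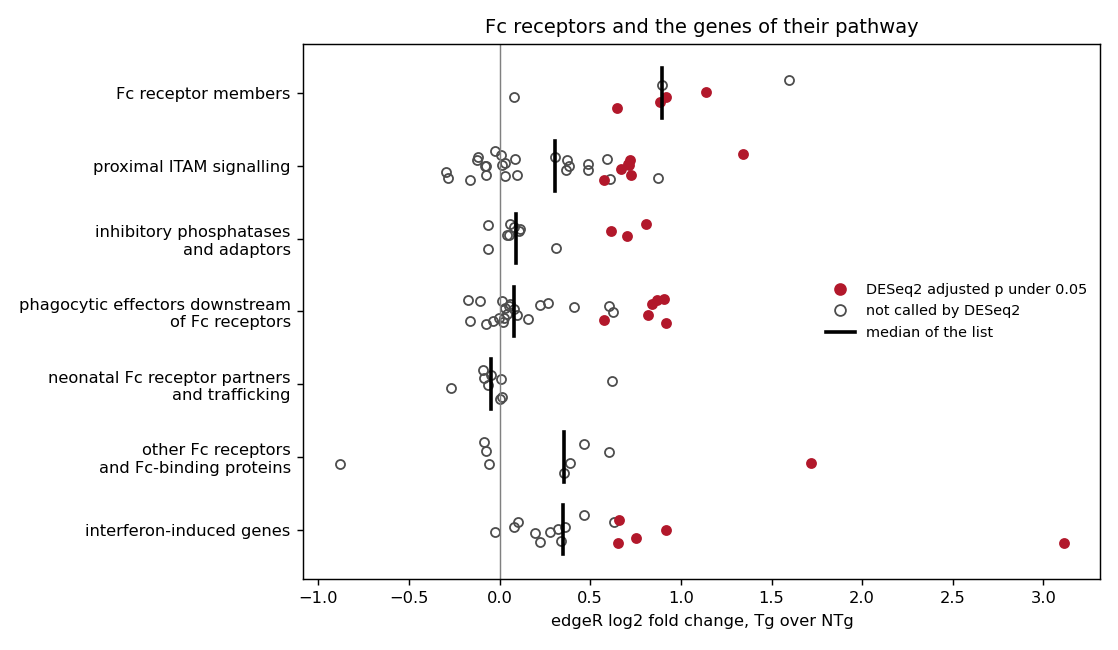
Log2 fold change from edgeR, Tg over NTg, of each tested gene in the Fc receptor set and in 6 lists of related genes. Filled points passed DESeq2 and black bars are medians; the receptors' median is 0.89, the ITAM list's 0.31 and that of the neonatal receptor's partners -0.05.

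Interferon-induced genes bear on Fcgr1 and Fcgr4, since both receptors are known to be inducible by interferon. Of 16 such genes 15 were higher, with a median log2 fold change of 0.35, and edgeR called 1, Cxcl10 (4.22 ± 1.14 CPM in Tg and 0.485 ± 0.12 CPM in NTg, log2 fold change 3.11, SE 0.24, edgeR adjusted p = 0.00146). DESeq2 called 5 of the 16 higher, against 1.37% of all genes. Without Tg replicate 1 edgeR called 1, against 1.26% of all genes higher. Without NTg replicate 1 it called 5, against 0.0685% of all genes. NTg replicate 1 was the highest NTg library in this same list, so that setting follows from the values tested and is no separate support. Bst2 was at 8.35 ± 0.10 CPM in Tg and 4.95 ± 1.53 CPM in NTg (edgeR adjusted p = 0.192, and 0.033 without NTg replicate 1; DESeq2 adjusted p = 0.00437), and Ifit3 at 28.5 ± 4.95 CPM in Tg and 18.1 ± 4.11 CPM in NTg (edgeR adjusted p = 0.214, and 0.103 without NTg replicate 1; DESeq2 adjusted p = 0.00767). The mean of the list relative to NTg was 0.73, 0.60, 0.56 and 0.56 in Tg and 0.64, -0.29, -0.23 and -0.12 in NTg. Its order differed from that of Fcgr1, since the list was highest in Tg replicate 1, where Fcgr1 was lowest among Tg libraries. NTg replicate 1 was the highest NTg library in both. The part of interferon response in either receptor's value was not tested.

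Genes were then ranked by how closely their profile over the 8 libraries followed each receptor, as the mean absolute difference between log2 CPM values centred on each gene's own mean, among 13766 other genes. Fcer1g and Fcgr3 were each other's nearest gene, at 0.0533, followed for both by Adgre1, which encodes the macrophage protein F4/80, at 0.0534 from Fcer1g and 0.0719 from Fcgr3. The next for Fcer1g was Cd48 (0.0639). Nearest to Fcgr1 were Unc93b1, Csf1r and Cyth4 (0.0454 to 0.0593), and nearest to Fcgr2b were the lysozyme genes Lyz2 and Lyz1 (0.0767 and 0.0786) and then Tfcp2l1 (0.128). Lyz2 and Lyz1 are near-identical copies, so their counts are uncertain.

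Fcgr4 and Fcrls had no close match. The nearest genes to Fcgr4 were Dubr, C3ar1 and Hk2 at 0.234 to 0.253, and to Fcrls they were Hcar2, Tlr1 and Ggta1 at 0.333 to 0.351. Fcgrt was close to Abcc4 (0.0382) and Tada2a (0.0391), genes with as little difference between libraries as itself. Among the 7, Fcgr3 and Fcer1g were the closest pair, followed by Fcgr1 and Fcer1g at 0.144 and Fcgr2b and Fcgr3 at 0.151, and Fcgrt and Fcrls were the farthest apart at 0.83.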

How the data were processed

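RNA from pulverised frozen forebrain was made into TruSeq RNA version 2 libraries and sequenced as paired 75-base reads, per the labels' protocols. The authors deposited raw read counts per Ensembl gene. STAR, DESeq2 and build GRCm39 are named in the submitters' processing notes, while the sources used here do not name the counting tool, the annotation or any version. Symbols were matched by Ensembl identifier for 52073 of 56748 genes. Genotype came from the sample titles, and 0 columns belonged to other series.

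Genes passing edgeR's filterByExpr (minimum count 10, minimum total 15) were TMM-scaled and tested with the quasi-likelihood F test of edgeR 4.0.16 in R 4.3.3, with Benjamini-Hochberg adjustment over all genes tested and a threshold of 0.05. CPM uses TMM-scaled library sizes, and log2 CPM a prior count of 2. SE is the log2 fold change divided by the square root of F. Within-library ratios were tested by exact permutation, two-sided. Alternatives were DESeq2 1.42.0, limma-voom 3.58.1, other scalings and filters, robust dispersion, a surrogate variable (sva 3.50.0), covariates, a replicate block and libraries left out. The scripts were tested on simulated data. Within a genotype, no pair of libraries had a chi-square per gene under 11.0, so none was a repeat of another.

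The members and lists were chosen with earlier results of these data known. Named genes are the 7 members, App and Prnp, in each list that is not of cell markers the 2 genes with the smallest p and the 2 most abundant, and the 3 nearest profiles of each member among genes of at least 1 CPM. Syk, Fcer1a, and the genes named as called by DESeq2, are not named by this rule but picked with their values known, as were the genes named in the closing section beside the members. Some genes that this rule names, or that a count includes, are not reported here. Prnp was at 704 ± 27.0 CPM in Tg and 700 ± 23.3 CPM in NTg.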

Additional observations from a re-analysis of the deposited data

Results flagged for a closer look

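In 132 groups of 4 libraries examined for a single library far from the other 3, 14 such cases were found (10.6%). Chance gives about 1 in 20 for independent groups. These groups share the same 8 libraries and hold genes that vary together, so the 2 rates cannot be compared. Tg replicate 1 was the low library in 9 of them. Among the members these were Fcgr1, at 4.68 CPM where Tg replicates 2 to 4 had 6.88 to 7.19, Fcrls, at 18.95 CPM where they had 40.6 to 42.9, and the log2 ratio of Fcgr2b to Fcgr3, at -0.96 where they had -0.60 to -0.55. The microglia markers, at 678 CPM against 1046 to 1105, showed the same. So did Ptpn6 (6.54 CPM against 8.98 to 9.24) and App (2532 CPM against 2934 to 2980). Adgre1 (10.3 CPM against 18.5 to 19.4), Unc93b1 (16.1 CPM against 24.2 to 25.5) and Cyth4 (15.6 CPM against 22.04 to 23.1) were flagged too. These genes were named because their profiles follow a member, so they add no separate case.

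Tg replicate 1 was also the single high library in red blood cell markers, at 3004 CPM against 448.3 to 732.4 CPM in the other Tg libraries. NTg replicate 1 was the single high NTg library in B2m, at 180.4 CPM against 91.6 to 106.7, and in Prnp, at 734 CPM against 685 to 691. Dendritic cell markers were high in NTg replicate 4, at 49.3 CPM against 37.0 to 39.1. Natural killer cell markers were high in Tg replicate 3, at 0.998 CPM against 0.576 to 0.619.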

How the results depend on the processing

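The counts of calls depended most on the tool and on Tg replicate 1. Where edgeR called 3 genes, DESeq2 called 350, edgeR with no filter on low counts 127, with the replicate block 1, with the microglia covariate 0, and without replicate 1 of both genotypes, a setting chosen after seeing the data, 318. Leaving out 1 library gave 3 to 314 genes, with 314 without Tg replicate 1, 16 without NTg replicate 1 and 9 without Tg replicate 2. Of the 7 receptor genes, 0 were called at first, 4 by DESeq2, 3 with no filter, 0 to 4 with 1 library left out and 5 without replicate 1 of both genotypes. Of the signalling and partner lists 1 gene was called at first, 22 by DESeq2, 9 with no filter, 0 with the replicate block, 0 with the microglia covariate, 1 to 17 with 1 library left out and 29 without replicate 1 of both genotypes. The log2 ratio of Fcgr2b to Fcgr4 differed by -0.090 to 0.50 with 1 library left out, being -0.051 without Tg replicate 4 and -0.090 without NTg replicate 4. For Fcer1g over Tyrobp the difference was -0.46 to -0.32 with 1 library left out, where p = 0.0571 is the smallest an exact permutation test allows, and -0.40 in pairs by replicate number (the replicate block), where p = 0.125 is the smallest. Over all genes tested, the replicate numbers showed no clear pairing of the libraries. Same-numbered libraries correlated at -0.03 to 0.16 in their deviations, 1 of 4 pairs was above 0.1, and 1 Tg library correlated best with its own number. Such correlations cannot exclude a shared litter or shared processing. Single genes could still be alike, as Fcrl5 and Ighg3 were highest in replicate 1 of both genotypes.

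Over the log2 fold changes of single genes named, 859 values kept direction and call, 90 newly passed, 4 no longer passed and the rest changed sign, none with a call. With the microglia covariate the values that changed sign were -0.175 for Fcgr2b, -0.076 for Fcgr3, -0.0015 for Fcer1g, -0.15 for Fcgrt, -0.044 for Fcrls, -0.13 for Prnp, 0.0051 for Fcgbp, -0.017 for Inpp5d, -0.076 for Sirpa, -0.19 for Cfl1, -0.044 for Ifit2, -0.11 for Unc93b1, -0.052 for Csf1r, -0.075 for Lyz1, -0.29 for Tfcp2l1, -0.049 for Cd48, -0.11 for Abcc4, -0.15 for Tada2a and -0.16 for Tlr1. With the red blood cell covariate they were -0.028 for Fcgrt, -0.031 for Prnp, -0.071 for Cfl1, -0.033 for Abcc4 and -0.046 for Tada2a. With 1 library left out, values on both sides of 0 ran from -0.0049 to 0.036 for Prnp, -0.030 to 0.063 for Cfl1, -0.0054 to 0.066 for Tada2a, -0.021 to 0.039 for Vps35 and -0.0023 to 0.14 for Ifit2. Cfl1 was at -0.021 with 1 surrogate variable, and Vps35 at -0.0079 without replicate 1 of both genotypes. App and Cxcl10 no longer passed with the replicate block or the microglia covariate. The cause was not tested. Fcgr4 had 30 to 103 counts a library, the fewest of the 7 receptor genes.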

Other observations

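Antibody and B cell genes, the source of the ligands of these receptors, stood apart in NTg replicate 1. Their summed level was 28.3 to 43.7 CPM in Tg and 86.1, 32.8, 28.6 and 20.6 CPM in NTg replicates 1 to 4. Igkc, the kappa light chain, was at 0.377 to 3.73 CPM in Tg and at 14.2 CPM in NTg replicate 1, against 2.19 to 3.04 CPM in the other NTg libraries. Ighm, the heavy chain of immunoglobulin M, was at 53.6 CPM in that library and at 12.9 to 36.0 CPM in the other 7 of both genotypes. Fc receptor relatives of lymphocytes were high in the same library: Fcmr, the receptor for immunoglobulin M, had 19, 6, 6 and 11 counts in Tg and 60, 8, 4 and 8 in NTg, and Fcrl5 had 20, 1, 1 and 2 counts in Tg and 53, 3, 1 and 5 in NTg. Among heavy chains of immunoglobulin G, Ighg2c was at 1.33 to 2.25 CPM in Tg and 1.62 to 2.76 CPM in NTg. Ighg3 was at 1.46 CPM in Tg replicate 1 and 1.87 CPM in NTg replicate 1, and below 0.2 CPM in the other libraries.

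NTg replicate 4, in which Fcrls was lowest, also had the lowest count of Fcrl1, a B cell gene that lies 2 protein-coding genes from it on chromosome 3. Fcrl1 had 22, 25, 24 and 31 counts in Tg and 31, 19, 15 and 1 in NTg. Cd5l, between Fcrls and Fcrl1, had 4, 12, 9 and 26 counts in Tg and 4, 45, 7 and 3 in NTg. Beyond Fcrl1, Fcrl5 was not lowest in NTg replicate 4, and Etv3 had 2068, 2098, 1855 and 1809 counts in NTg. The next protein-coding gene on the other side of Fcrls, Kirrel, had 719, 559, 505 and 462 counts in Tg and 526, 582, 561 and 431 in NTg, without such a drop. Summed antibody and B cell genes were also lowest in NTg replicate 4, at 20.6 CPM. Any link between these values was not tested.

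Fcgr4 held 8.17% of the per-kilobase sum of the 4 receptors for immunoglobulin G in Tg replicate 1 and 8.19% in NTg replicate 4, where the other libraries held 3.56 to 5.52% in Tg and 3.75 to 4.62% in NTg. Red blood cell markers were highest in the same 2 libraries, at 3004 CPM in Tg replicate 1 and 3274 CPM in NTg replicate 4. The other libraries had 448.3 to 732.4 CPM in Tg and 1283 to 1877 CPM in NTg. Apoa2, an apolipoprotein gene next to Fcer1g on chromosome 1 with few counts, was lowest in these 2 libraries. It had 1, 16, 41 and 25 counts in Tg and 21, 30, 37 and 0 in NTg. Any link of these values to Fcgr4 was not tested.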
